A study of Mus musculus with 18 samples.

Results

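The circular RNAs of mouse brains that lack both A-to-I editing activities were compared with those of brains that lack ADAR2 alone, read by Oxford Nanopore sequencing (ONT). Circular RNAs form when a downstream 5′ splice site is joined to an upstream 3′ splice site of the same transcript, which closes 1 or several exons into a ring without a cap or a tail. They are abundant and stable in the brain, where many come from genes of neurons and synapses, and paired inverted repeats in the flanking introns are known to favour back-splicing. ADAR1 and ADAR2 convert adenosine to inosine in double-stranded RNA of this kind. The question the comparison addresses is how circles differ when catalytically active ADAR1 is missing in addition to ADAR2.

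The Adar1-2KO mice were Adar1 E861A/E861A, Ifih-/-, Adar2-/- and Gria2R/R. They thus carried a catalytically inactive ADAR1, no MDA5 (the sensor of double-stranded RNA encoded by Ifih1) and no ADAR2, with a Gria2 allele that encodes the arginine otherwise made by editing of this AMPA receptor subunit. The Adar2KO mice were Adar2-/- and Gria2R/R. Loss of ADAR2 and the Gria2 allele were shared by both groups, and the contributions of the Adar1 and Ifih alleles to any difference between them cannot be told apart. Each group had 3 ONT libraries from whole brains of male C57BL/6J mice aged 3 to 4 months, given as biological replicates. In whole tissue, fewer cells of a type and less RNA per cell cannot be told apart. RNA was treated with RNase R to remove linear molecules, copied by rolling reverse transcription from random hexamers and amplified over 14 PCR cycles, so reads are not independent molecules and counting errors understate the error of a library. ONT libraries of wild type brains, 2 with tables used here, stood outside the test and are given for scale.

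A circle was defined by its chromosome, start and end, and was kept when at least 3 of the 6 libraries listed it with 5 or more reads. That rule kept 9758 of the 148072 circles listed in the 6 libraries, and 166212 were listed in all 8 ONT libraries. Of the 9758 circles, 8758 were exonic, 351 intronic, 133 antisense and 516 intergenic, and 3363 host genes were named for them, with 577 circles having no single host. Their median spliced length was 686 bases (range 34 to 4184) over a median of 4 exon blocks, 1336 circles had a single block, and 4242 of them (43.5%) were listed with 2 or more isoforms. Dgki, a diacylglycerol kinase gene, hosted the most (41), followed by Nbea (34) and Rims2 (30), which encode a neuronal vesicle traffic protein and a scaffold of presynaptic active zones, while 1575 hosts had 1 circle each. At the edge of the rule, 2344 circles reached 5 reads in exactly 3 libraries with a median of 29 summed reads, and 3835 circles left out reached it in exactly 2 libraries with a median of 20.

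The circles on which the comparison turns are mostly short rings of 2 to 5 coding exons. The sequences below are shown because the junction is what a back-splice read must cross and because primers or probes for these circles would have to span it. They are from GENCODE vM21 transcripts (GRCm38), matched by the lengths of consecutive exons, and each runs 5′ to 3′ on the strand of the host gene. Of the 20 circles that passed the test, 17 matched exactly 1 run of exons, 15 of those runs lay wholly in coding sequence, and 7 had a length that is a multiple of 3. The first group gives 30 bases across the junction, the last 15 bases of the circle's final exon in lower case followed by the first 15 bases of its first exon in capitals. The Fbxo42 circle fell, and the others rose.
Lrp1b: agacatgtggcagagATAAAAAGACTTGTG
Mllt10: gagaaagagaaaaaaACTTGCTATATATGT
Ccar1: agccacagcagaaagTGCTGTTAAAGGGAA
Nfatc3: gaaaaatgtcaagggCTCAGCGATCTGCTC
Acap2: atcaatttccacacaGGCTGCTTTGGAAGA
Ttc19: aagatattatgtcagTTGAGCATCATGAAA
Ano3: cgaaagccaagtaagGGAGCCTACAAGAGT
Dnm3: aagttgatcctcaagAATATGCCGAGTTTC
Fbxo42: gaccattggcctcagAGCTTCGAGTGTGTC
The next group gives 3 of the circles that rose as whole rings, again with the 15 bases after the junction in capitals. The ring of Brsk2 (chr7:141544085-141546037, plus strand, GRCm39) has 2 exons of 66 and 61 bases, that of Copa (chr1:171925241-171927334, plus strand) has 2 of 110 and 100 bases, and that of Nalcn (chr14:123607350-123609026, minus strand) has 2 with 279 bases in all.
Brsk2: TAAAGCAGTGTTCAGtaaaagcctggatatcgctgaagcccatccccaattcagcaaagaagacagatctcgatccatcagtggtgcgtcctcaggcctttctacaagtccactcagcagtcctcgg
Copa: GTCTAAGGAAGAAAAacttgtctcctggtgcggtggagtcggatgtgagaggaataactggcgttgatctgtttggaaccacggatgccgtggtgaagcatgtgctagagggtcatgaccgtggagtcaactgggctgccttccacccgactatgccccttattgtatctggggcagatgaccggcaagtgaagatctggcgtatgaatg
Nalcn: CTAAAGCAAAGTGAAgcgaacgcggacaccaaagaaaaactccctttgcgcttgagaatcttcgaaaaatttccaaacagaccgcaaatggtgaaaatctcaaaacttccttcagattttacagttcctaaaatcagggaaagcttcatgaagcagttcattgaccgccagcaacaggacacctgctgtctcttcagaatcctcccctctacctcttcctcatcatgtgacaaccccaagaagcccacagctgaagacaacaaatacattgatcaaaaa

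Read totals were 448511, 296959 and 673705 in the Adar1-2KO libraries and 364380, 447592 and 425390 in the Adar2KO libraries, and the 9758 circles held 67.8% to 74.4% and 71.0% to 77.6% of them. Adar1-2KO replicate 3 stood apart. It had the most reads and the fewest circles listed (23441, against 33077 to 47174 in the other 5), a median of 10 reads per circle against 3, and no reads for 3181 of the 9758 circles. Its rank correlations with the other libraries over these circles were 0.40 to 0.53, against 0.60 to 0.79 among the other 5. Results that this library changes are given with and without it.

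**Figure D1:**
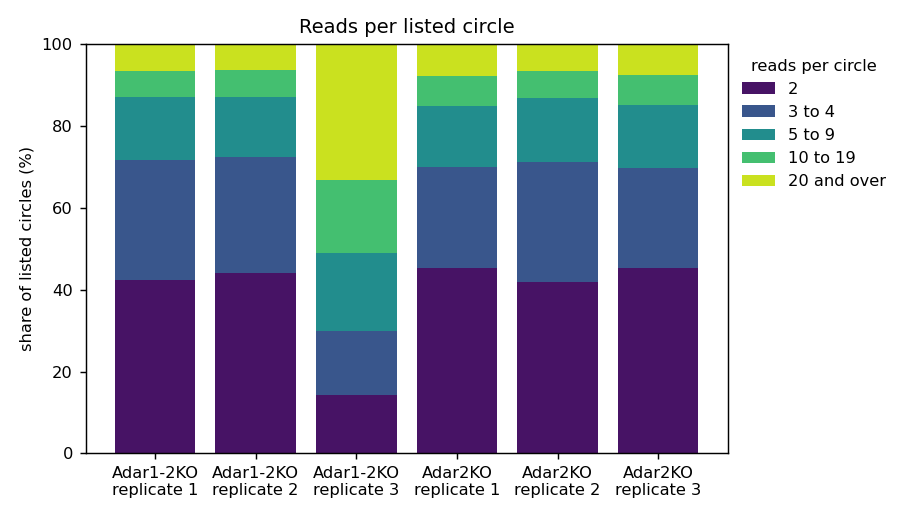
Share of the listed circles of each ONT library (vertical axis, percent) by the number of reads per circle (colours, 2 being the lowest number listed). Circles with 2 reads made up 14.3% of the list of Adar1-2KO replicate 3 and 42.0% to 45.2% of those of the other 5 libraries.

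Of the 9758 circles, 16 were higher and 4 were lower in Adar1-2KO than in Adar2KO brains at an adjusted p under 0.05 by edgeR's quasi-likelihood test with Benjamini-Hochberg adjustment, which is 0.164% and 0.041% of the circles tested (0.205% in either direction). The rises were between 3.33-fold and 12.3-fold and each came from a different host gene. An unadjusted p under 0.05 was reached by 914 circles (9.37%), and the libraries of the groups did not overlap for 2211 circles (22.7%), a share that includes all 20. For circles with 0 reads in a whole group, those of Plcl1 and Ppia among them, the rule that kept circles fixed this outcome. Without Adar1-2KO replicate 3, 66 circles were higher (0.676%) and 27 lower (0.277%), and all 20 were among them. Leaving out Adar2KO replicate 2 left 1 call, and leaving out Adar1-2KO replicate 1, Adar1-2KO replicate 2, Adar2KO replicate 1 or Adar2KO replicate 3 left 0, with 570 to 1294 circles at an unadjusted p under 0.05.

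**Figure D2:**
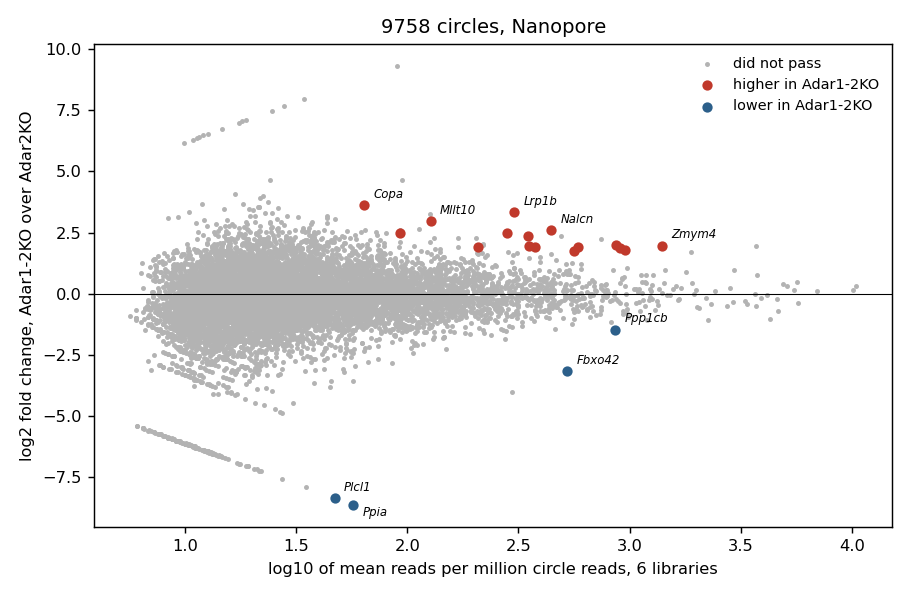
Log2 fold change of Adar1-2KO over Adar2KO (vertical axis) against the log10 of the mean reads per 1000000 circle reads over the 6 libraries (horizontal axis) for the 9758 circles. The 16 circles that rose (red) and the 4 that fell (blue) are coloured, and the lines of points at the upper and lower edges are circles with 0 reads in every library of 1 group, whose fitted values depend on the prior count.

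The largest rise that passed was that of a circle of Copa, the alpha subunit of the COPI vesicle coat. It had 57, 32 and 81 reads in Adar1-2KO brains, against 5, 3 and 4 in Adar2KO brains. That is 118 ± 9.8 reads per 1000000 circle reads (CPM; SD, n = 3) in Adar1-2KO and 9.94 ± 3.54 in Adar2KO, a log2 fold change of 3.62 (SE 0.48, adjusted p = 0.0306, edgeR). Every Adar1-2KO library was above every Adar2KO library, and the circle made up 78.0% of the reads of all Copa circles in Adar1-2KO brains, against 24.8% in Adar2KO brains.

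The Lrp1b circle (chr2:40615394-40641028, minus strand, 5 exons, 594 bases), from a giant endocytic receptor of the LDL receptor family, had 262, 121 and 442 reads in Adar1-2KO brains and 21, 15 and 35 in Adar2KO brains. Its log2 fold change was 3.32 (SE 0.36, adjusted p = 0.0154, edgeR), and it was 1 of 19 Lrp1b circles kept, with 26.1% of the host's circle reads in Adar1-2KO against 3.65% in Adar2KO. The lowest Adar1-2KO library stood well above the highest Adar2KO library. The Nalcn circle, from the sodium leak channel that sets the resting potential of neurons, had 401, 215 and 447 reads in Adar1-2KO brains and 46, 57 and 57 in Adar2KO brains. It averaged 761 ± 120 CPM in Adar1-2KO and 129 ± 4.19 CPM in Adar2KO (SD, n = 3 each), a log2 fold change of 2.61 (SE 0.23, adjusted p = 0.0096, edgeR), the lowest p among the rises. It held 50.1% of the Nalcn circle reads in Adar1-2KO, against 10.7% in Adar2KO.

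The Aak1 circle (337 bases), from the kinase that phosphorylates the clathrin adaptor AP2, had 74, 51 and 89 reads in Adar1-2KO and 10, 11 and 15 in Adar2KO (log2 fold change 2.47, SE 0.36). The Acap2 circle (232 bases), from a GTPase-activating protein of Arf6, had 694, 422 and 799 reads in Adar1-2KO and 127, 185 and 137 in Adar2KO (1.99, SE 0.23). The Ano3 circle (257 bases), from a membrane protein of the anoctamin family, had 286, 182 and 283 reads in Adar1-2KO and 56, 68 and 63 in Adar2KO (1.93, SE 0.25). In none of them did the groups overlap. Dnm3, a dynamin of synaptic membranes, gave a circle of 354 bases that was higher by 1.92 on the log2 scale, with 592 ± 139 CPM in Adar1-2KO and 162 ± 9.34 CPM in Adar2KO.

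The Mllt10 circle (chr2:18127056-18131040, 3 exons, 294 bases), from a cofactor of the histone methyltransferase DOT1L, had 86, 79 and 147 reads in Adar1-2KO and 10, 13 and 14 in Adar2KO (log2 fold change 2.95, SE 0.32, adjusted p = 0.0154, edgeR). The Ccar1 circle (308 bases), from a transcriptional coactivator, had 192, 121 and 389 reads in Adar1-2KO and 28, 41 and 41 in Adar2KO (2.46, SE 0.27). The Nfatc3 circle (197 bases), from a transcription factor controlled by calcineurin, had 269, 175 and 372 reads in Adar1-2KO and 57, 39 and 46 in Adar2KO (2.38, SE 0.26). The groups were again apart in every library. The Zmym4 circle (755 bases), from a zinc finger protein, was the most abundant of the rises and had 1083, 818 and 974 reads in Adar1-2KO and 239, 226 and 260 in Adar2KO (1.96, SE 0.26). The Brsk2 circle, from a kinase of neuronal polarity, was the shortest at 127 bases and had 667, 463 and 782 reads in Adar1-2KO and 176, 178 and 136 in Adar2KO (1.86, SE 0.23). The remaining rises were Ranbp17 (1.92), of the importin family, Map2k4 (1.89), a kinase upstream of JNK, Ttc19 (1.77), an assembly factor of mitochondrial complex III, and Mllt3 (1.74), a reader of acylated histones.

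**Figure D3:**
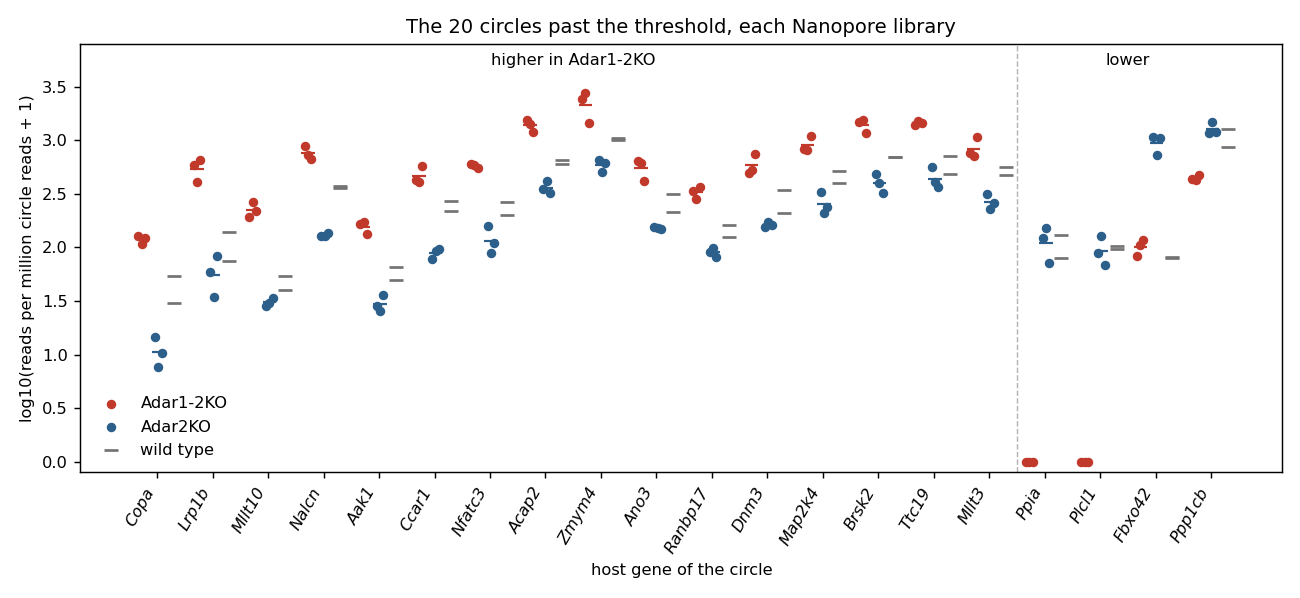
Reads per 1000000 circle reads, as log10 of the value plus 1 (vertical axis), of the 20 circles that passed, named by their host gene. Each point is 1 library (red Adar1-2KO, blue Adar2KO), the coloured line is the mean of the plotted values, and the grey lines are the 2 wild type libraries. No Adar1-2KO point lies among the Adar2KO points of the same circle.

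In wild type brains the mean of the 2 libraries lay between the means of the mutant groups for all 16 rises, and it was nearer to Adar2KO for 12 of them. The Copa circle had 41.4 CPM in wild type and the Nalcn circle 365 CPM. These values were not tested.

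Illumina libraries of the same genotypes, 3 per group, gave smaller differences for the same coordinates. Whether they came from the same brains is not given in the sources used here. All 16 rises were measured there, 13 had the same sign, and 13 lay within 0.5 of 0 on the log2 scale, with a range of -0.26 to 2.47. The Lrp1b circle was the highest of them, with 794, 698 and 858 CPM in Adar1-2KO and 157, 119 and 152 CPM in Adar2KO (log2 fold change 2.47, SE 0.26, adjusted p = 0.0408, edgeR), where 2 of 29955 Illumina circles (0.00668%) passed in that direction. It was at 2.37 and did not pass without the Illumina library of Adar1-2KO replicate 3 (adjusted p = 0.0568, edgeR). The Copa circle was at 0.02 (SE 0.39) and the Nalcn circle at 0.09 (SE 0.28) on the Illumina platform, and the difference between platforms was not tested. Among the falls, 3 had an Illumina value and all 3 were below 0. The Fbxo42 circle had 227, 275 and 98.9 CPM in Adar1-2KO and 1016, 1167 and 903 CPM in Adar2KO (-2.37, SE 0.34), which did not pass (adjusted p = 0.152, edgeR).

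**Figure D4:**
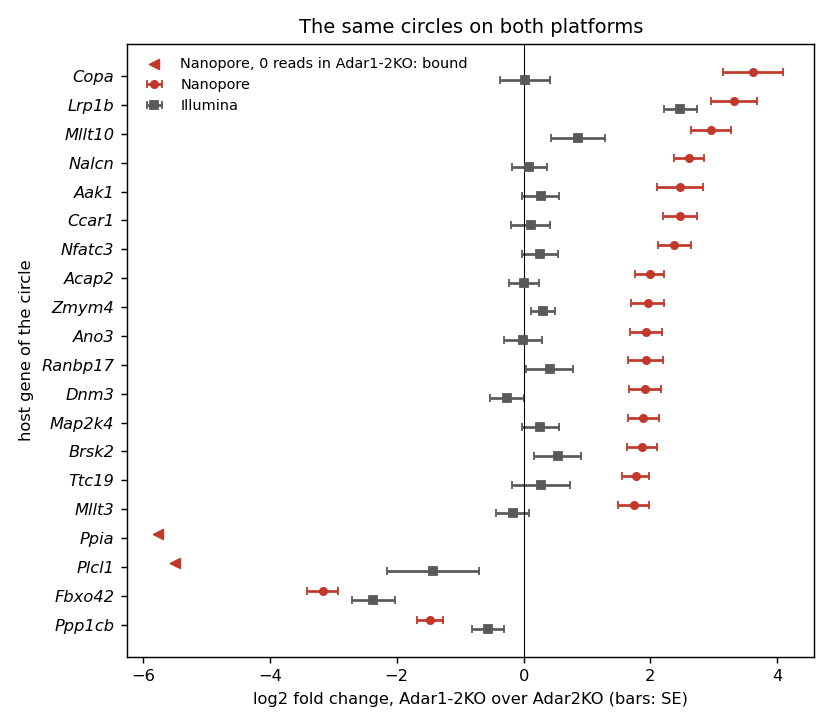
Log2 fold change of Adar1-2KO over Adar2KO with its SE (horizontal axis) for the 20 circles that passed in the ONT data (red circles) and the same coordinates in the Illumina data (grey squares), named by host gene. Triangles are bounds for circles with 0 ONT reads in Adar1-2KO, and the Ppia circle has no Illumina value. Lrp1b and Fbxo42 are far from 0 on both platforms.

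Most circles that shared a back-splice end with a circle that rose had values above 0. Of 24 such circles, which belonged to 11 of the rises, 19 had a log2 fold change above 0 and their median was 0.99 (range -1.25 to 2.43), none of them passing the test. The other 54 circles of the hosts of the rises had a median of -0.15, with 25 above 0, beside 4120 of 9758 and a median of -0.20 over all circles. The Zmym4 circle at chr4:126816857-126842272, which shares the start of the circle that rose, had 108, 76 and 75 reads in Adar1-2KO and 22, 17 and 21 in Adar2KO (2.10 on the log2 scale). The Mllt10 circle at chr2:18127056-18151683 had 43, 32 and 73 reads in Adar1-2KO and 11, 12 and 15 in Adar2KO (1.81). The Ano3 circle at chr2:110587283-110605467 had 126, 60 and 304 reads in Adar1-2KO and 34, 43 and 53 in Adar2KO (1.63). In each of these the Adar1-2KO libraries were all above the Adar2KO libraries.

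Rims1 and Erc1, scaffolds of the presynaptic active zone, also had several circles from a shared end, and they were singled out after their values were seen. The Rims1 circle at chr1:22572480-22577704 (1180 bases) had 2805, 2739 and 1394 reads in Adar1-2KO and 808, 685 and 402 in Adar2KO, a log2 fold change of 1.96 (adjusted p = 0.245, edgeR). Relative to the library totals the groups overlapped, since Adar1-2KO replicate 3 lay below Adar2KO replicate 1. Without Adar1-2KO replicate 3 its log2 fold change was 2.35 (adjusted p = 0.013, edgeR). A second Rims1 circle from the same start, chr1:22572480-22635665, had 207, 171 and 0 reads in Adar1-2KO and 44, 34 and 32 in Adar2KO, so that the library set apart above is opposite to the other 2. The Erc1 circle at chr6:119671532-119690772 (293 bases) had 431, 327 and 259 reads in Adar1-2KO and 75, 69 and 58 in Adar2KO (2.36, adjusted p = 0.069, edgeR), and without Adar1-2KO replicate 3 it was at 2.69 (adjusted p = 0.0017, edgeR).

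The Fbxo42 circle (chr4:140895024-140907843, 3 exons, 517 bases), from an F-box subunit that selects targets for SCF ubiquitin ligases, had 37, 31 and 78 reads in Adar1-2KO and 389, 327 and 448 in Adar2KO. It averaged 101 ± 16.9 CPM in Adar1-2KO and 950 ± 191 CPM in Adar2KO (SD, n = 3 each), a log2 fold change of -3.17 (SE 0.24, adjusted p = 0.0056, edgeR). Wild type libraries had 77.9 and 80.4 CPM, near Adar1-2KO and far below Adar2KO. The Ppp1cb circle (chr5:32635410-32648533, 7 blocks, 1063 bases), from a catalytic subunit of protein phosphatase 1, had 194, 127 and 320 reads in Adar1-2KO and 424, 658 and 514 in Adar2KO (-1.48, SE 0.21, adjusted p = 0.0406, edgeR).

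The Plcl1 circle (chr1:55734904-55741292, 2679 bases), from a phospholipase C-like protein without lipase activity, had 0 reads in each Adar1-2KO library and 32, 57 and 29 in Adar2KO, at least 45.1-fold lower when 3 reads over the whole Adar1-2KO group are taken as the floor. In wild type it had 21 and 18 reads. The Illumina libraries did list this circle in Adar1-2KO, with 116, 78 and 27 reads there and 127, 238 and 162 in Adar2KO. That is a log2 fold change of -1.43 (SE 0.73), which did not pass (adjusted p = 0.9997, edgeR). In the ONT data it did not pass with limma's voom and quality weights (adjusted p = 0.064). A Plcl1 circle with the same start and a later end had 16, 16 and 0 reads in Adar1-2KO and 23, 36 and 16 in Adar2KO. The Ppia circle, an antisense ring of 83 bases at chr11:6369622-6369704 in the gene of cyclophilin A, had 0 reads in each Adar1-2KO library and 44, 68 and 30 in Adar2KO, at least 54.3-fold lower by the same floor. That fall holds only for these exact ends. Circles whose ends lie within 25 bases of them held 59, 84 and 22 reads in Adar1-2KO, and with such circles joined the Ppia log2 fold change was 0.38 (adjusted p = 0.912, edgeR). The joined circle had 132, 283 and 32.7 CPM in Adar1-2KO and 121, 152 and 70.5 CPM in Adar2KO.

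Of the falls that did not pass, the 5 with the lowest p were those of H6pd, Ptchd4, Ubn2, Nova2 and Stk32c. The H6pd circle, from a hexose-6-phosphate dehydrogenase of the endoplasmic reticulum, had 49, 47 and 54 reads in Adar1-2KO and 157, 189 and 191 in Adar2KO (-1.87, adjusted p = 0.0607, edgeR). The Nova2 circle, from a neuronal splicing regulator, had 15, 5 and 29 reads in Adar1-2KO and 62, 89 and 75 in Adar2KO (-2.44, adjusted p = 0.0686, edgeR). The Ubn2 circle had 0 reads in each Adar1-2KO library and 28, 33 and 25 in Adar2KO. In the Illumina data it had 55, 40 and 37 reads in Adar1-2KO and 114, 83 and 58 in Adar2KO (-1.18, SE 0.79). For H6pd, Ptchd4 and Nova2 the groups did not overlap at these exact ends, as for 22.7% of all circles. For Ubn2 and Stk32c, with 0 reads in each Adar1-2KO library, the rule that kept circles fixed this outcome. The Stk32c value, an antisense ring with 0 reads in each Adar1-2KO library, depended on the exact ends. Its log2 fold change was -7.57, and -3.81 (adjusted p = 0.321, edgeR) with circles joined where both ends lie within 25 bases. Over the 9758 circles, 119 had 0 reads in all 3 Adar1-2KO libraries, and 14 had 0 reads in all 3 Adar2KO libraries. These 2 counts cannot be set against each other. A circle at 0 in 1 group was kept only if all 3 libraries of the other group reached 5 reads. Adar1-2KO replicate 3 had no reads for 3181 of the 9758 circles.

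Long circles had lower values in Adar1-2KO. In the class of 2000 bases and over (243 circles) the median log2 fold change was -1.0 and 14.4% were above 0. In the classes of 1500 to under 2000 bases (513 circles) and 1000 to under 1500 bases (1620 circles) the medians were -0.72 and -0.45. Circles of 500 to under 1000 bases, 250 to under 500 bases and under 250 bases had medians of -0.09, 0.01 and -0.01. Without Adar1-2KO replicate 3 the medians of the 3 long classes, longest first, were -0.53, -0.44 and -0.25, and without Adar2KO replicate 2 they were -0.68, -0.46 and -0.27. In the Illumina data they were -0.70, -0.47 and -0.20. Of the 16 rises, 14 were under 500 bases, beside 2925 of all 9758 circles, and 2 of the 4 falls were over 1000, beside 2376 of all circles.

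The share of reads in the 2376 circles of 1000 bases or more shows how single libraries bear on this. It was 20.01%, 22.6% and 14.96% in the Adar1-2KO libraries and 21.6%, 31.5% and 22.9% in the Adar2KO libraries, so the groups overlapped. Adar1-2KO replicate 3 had the lowest share and Adar2KO replicate 2 the highest. The wild type libraries had 28.5% and 25.4%. The read-weighted median length was 672 ± 25.3 bases in Adar1-2KO and 738 ± 85.6 bases in Adar2KO (SD, n = 3 each), a difference that an exact permutation test did not resolve (two-sided p = 0.2, 0.5 adjusted over the 5 library values tested, where 0.1 is the smallest p that 3 against 3 allows). The part of amplification and size selection of cDNA in these lengths was not tested.

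**Figure D5:**
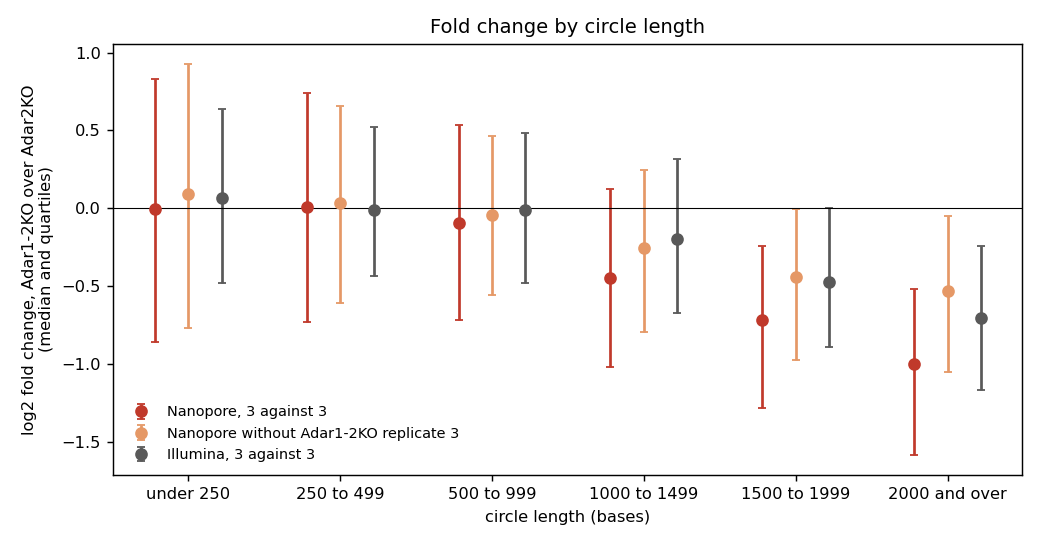
Median log2 fold change of Adar1-2KO over Adar2KO (vertical axis, bars from the lower to the upper quartile of circles) by circle length in bases (horizontal axis), for all 6 ONT libraries, for ONT without Adar1-2KO replicate 3, and for Illumina. The medians lie near 0 below 1000 bases and reach -1.0, -0.53 and -0.70 in the longest class.

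Reads summed over all circles of a host gene were tested for 5128 genes. Of these, 21 were higher (0.41%) and 7 lower (0.137%) in Adar1-2KO than in Adar2KO, or 0.546% in either direction, 657 (12.8%) had an unadjusted p under 0.05, and the groups did not overlap for 1186 (23.1%). Without Adar1-2KO replicate 3, 97 were higher (1.89%) and 66 lower (1.29%), and leaving out any other single library left 1 to 3 calls. Ncoa2, a coactivator of nuclear receptors, had 686, 404 and 1048 circle reads in Adar1-2KO and 190, 148 and 72 in Adar2KO (log2 fold change 2.15, SE 0.34, adjusted p = 0.0226, edgeR). Its leading circle, at chr1:13291531-13356249 with 335 bases, had 589, 357 and 762 reads in Adar1-2KO and 166, 104 and 50 in Adar2KO, and it did not pass alone (adjusted p = 0.105, edgeR). The Ncoa2 sum was at 1.43 (SE 0.28) in the Illumina data and did not pass there (adjusted p = 0.458, edgeR).

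Other hosts that rose were Rprd2 (2.06), which binds the tail of RNA polymerase II, Mbtps2 (1.93), a membrane protease that activates SREBP, Skp1 (1.79), the adaptor of SCF ubiquitin ligases, and Paip2 (1.56), an inhibitor of poly(A)-binding protein. Skp1 had 140, 81 and 260 reads in Adar1-2KO and 44, 37 and 36 in Adar2KO. Every Adar1-2KO library was above every Adar2KO library. Rab3gap2, Chmp3, Miga1, Rasa2 and Rapgef6 were higher by 1.15 to 1.44 on the log2 scale. Zmym4 (1.69), Ttc19 (1.64), Ccar1 (1.55), Mllt3, Acap2, Ano3, Ranbp17 and Brsk2 were higher as hosts as well as by a single circle. Their host sums include the reads of that circle, so the calls of circle and host are not independent. In Adar1-2KO it held on average from 49.7% (Ano3) to 98.6% (Ttc19) of the host's reads. The largest log2 fold changes belonged to Mllt11 (3.901; 26, 23 and 83 reads in Adar1-2KO, against 2, 3 and 2 in Adar2KO) and to the predicted gene Gm15459 (3.77; 44, 38 and 197 reads in Adar1-2KO, against 3, 9 and 4 in Adar2KO). Neither had a circle among the 9758. Of the 12 circles of Mllt11, 11 were listed in 1 library, and 37 of the 40 of Gm15459.

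Nalcn, whose circle rose, was at 0.34 as a host and did not pass (adjusted p = 0.48, edgeR). Copa was at 1.73 as a host with 77, 38 and 107 reads in Adar1-2KO and 18, 29 and 11 in Adar2KO (adjusted p = 0.123, edgeR). Of the 7 hosts that fell, Fbxo42 was at -3.19 (adjusted p = 0.000445, edgeR). Nnt, the mitochondrial transhydrogenase in which C57BL/6J mice are known to carry a deletion, had 34, 19 and 42 reads in Adar1-2KO and 77, 162 and 102 in Adar2KO (-1.98, SE 0.31, adjusted p = 0.0226, edgeR). Nnt averaged 67.4 ± 7.35 CPM in Adar1-2KO and 271 ± 80 CPM in Adar2KO (SD, n = 3 each), and 69.9 CPM in wild type. On the Illumina platform the Nnt sum was at -0.99 (SE 0.32) and did not pass (adjusted p = 0.9997, edgeR). The other falls were those of H6pd (-1.88), Ptchd4 (-1.69), Gpr137c (-1.42), Ppp1cb (-1.28) and Cnksr3 (-1.27), a kinase scaffold. In the Illumina data none of these 5 passed: H6pd was at -1.98 (SE 0.92, adjusted p = 0.9997, edgeR), Cnksr3 at -1.07 (SE 0.23, adjusted p = 0.635, edgeR), Ppp1cb at -0.66, Ptchd4 at -0.07 and Gpr137c at -0.03.

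The median log2 fold change over all 5128 hosts was 0.0048. Of 52 presynaptic hosts tested, 1 rose, Rab3gap2, a subunit of the complex that inactivates Rab3 (155, 84 and 268 reads in Adar1-2KO, against 54, 53 and 51 in Adar2KO), beside 0.41% of all hosts, none fell and the list's median was 0.14. Of 51 ubiquitin ligase hosts 1 fell, Fbxo42, beside 0.137% of all hosts, and the median was -0.08. No host passed among 48 glutamatergic postsynaptic genes (median -0.20), 26 GABAergic genes (0.01), 42 voltage-gated channels (0.01), 53 chromatin regulators (0.12) and 43 hosts known for abundant brain circles (-0.12). The glutamatergic circles summed to 14886 to 16174 CPM in Adar1-2KO and 17069 to 17668 CPM in Adar2KO. Those sums were apart between the groups, as were the values of 23.1% of all single hosts. Of the 48 hosts 21 were above 0, beside 2578 of all 5128. Nova2 had the lowest p of the 42 splicing regulators tested (median 0.16), at -1.58 (adjusted p = 0.067, edgeR). Without Adar1-2KO replicate 3, where 1.89% of all hosts rose and 1.29% fell, the presynaptic list had 5 rises (Rims1, Erc1, Syt1, Dnm3 and Rab3gap2) and 1 fall (Sv2b). The list of abundant hosts then had 4 rises (Rims1, Erc1, Zfp609 and Fbxw7) and 2 falls (Tulp4 and Hipk3). The chromatin list had 2 rises (Kdm5b and Chd6) and 1 fall (Tet3), the ubiquitin ligases 2 rises (Fbxw7 among them) and 1 fall (Fbxo42), and the splicing regulators 1 rise (Rbfox1) and 1 fall (Nova2). The channels had 2 falls (Kcnc1 among them), the glutamatergic list 1 rise (Nlgn3), and the GABAergic list had no call. Nlgn3 had no circle that the rule kept, and 11 of its 15 circles were listed in 1 library. Its leading circle, an antisense ring of 101 bases, had 0, 69 and 0 reads in Adar1-2KO and 0, 0 and 17 in Adar2KO.

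Of 40 genes of RNA sensing and the interferon response 17 had a circle listed and 6 were tested, with a median of -0.15 and no call. Tbk1, a kinase that activates interferon genes, was at 0.88 with 63, 36 and 61 reads in Adar1-2KO and 26, 31 and 23 in Adar2KO, apart between the groups but not passing (adjusted p = 0.347, edgeR). The 13 tested hosts that encode binders of double-stranded RNA had a median of -0.07, with sums over the list of 2897 to 3300 CPM in Adar1-2KO and 3400 to 3632 CPM in Adar2KO, and the 25 hosts known for recoding by editing a median of 0.21, with no call in either. Copa rose among the recoding hosts without Adar1-2KO replicate 3, and neither list of genes for double-stranded RNA had a call.

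Of the altered genes, Adarb1, which encodes ADAR2 and is disrupted in both groups, gave a circle at chr10:77130537-77148360 (942 bases) with 27, 18 and 66 reads in Adar1-2KO, 41, 38 and 27 in Adar2KO and 0 in both wild type libraries. As a host it did not pass between the mutants (-0.46, adjusted p = 0.61, edgeR). Adar had 25, 19 and 4 reads in Adar1-2KO and 23, 25 and 25 in Adar2KO, and since its E861A allele replaces a residue these counts check nothing. Gria2 had 68, 66 and 146 reads in Adar1-2KO and 48, 61 and 68 in Adar2KO (0.49, adjusted p = 0.52, edgeR). No circle of Ifih1 was listed, which leaves its loss unchecked.

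The hosts that mark cell types and regions were read in both groups, and none passed with all 6 libraries. Grm4 of the cerebellar list (-0.86) and Rarb of the striatal list (-2.92) fell without Adar1-2KO replicate 3. Circles of 28 of 30 oligodendrocyte genes summed to 3206 to 3509 CPM in Adar1-2KO and 3663 to 5011 CPM in Adar2KO. Circles of 24 of 26 cerebellar genes summed to 2301 to 3243 CPM in Adar1-2KO and 3533 to 4118 CPM in Adar2KO, with Pcp2 and Ppp1r17 at 0, and those of 17 of 20 striatal genes to 701 to 1019 CPM in Adar1-2KO and 1084 to 1194 CPM in Adar2KO. For 21 of 24 genes of cortex and hippocampus the sums were 2225 to 2379 CPM in Adar1-2KO and 2388 to 2958 CPM in Adar2KO. The sums of those 4 lists were thus apart between the groups, as were the values of 23.1% of all single hosts. Median log2 fold changes over the hosts tested were -0.23, -0.33, -0.72 and -0.42 in this order. The oligodendrocyte and cerebellar members were mixed, with 8 of 18 and 7 of 15 above 0, beside 2578 of all 5128 hosts. Most members of the striatal list and of the list of cortex and hippocampus were below 0, with 2 of 11 and 4 of 13 above it. The part of these lists in the results above was not tested. Astrocyte genes (26 of 28; 1956 to 2439 CPM in Adar1-2KO, 2123 to 2766 CPM in Adar2KO) and endothelial genes (18 of 23; 94.3 to 205 CPM in Adar1-2KO, 90.6 to 169 CPM in Adar2KO) overlapped, as did ependymal and choroid plexus genes (27 of 36; 522 to 763 CPM in Adar1-2KO, 346 to 534 CPM in Adar2KO). Microglial genes (13 of 22) summed to 274 to 284 CPM in Adar1-2KO and 219 to 274 CPM in Adar2KO, and their defining markers Cx3cr1, Csf1r and Aif1 had no circle listed.

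The most abundant circles did not pass by edgeR, with or without Adar1-2KO replicate 3. The single-exon Zfp609 circle (chr9:65701904-65702777, 874 bases), the first by mean CPM over the 6 libraries, averaged 11411 ± 3912 CPM in Adar1-2KO and 9491 ± 1234 CPM in Adar2KO (SD, n = 3 each), with overlapping libraries (log2 fold change 0.33, SE 0.25). The other 9 of the 10 most abundant were from Ankrd12 (0.13), Gigyf2, Snrk, Hdgfl3, Zfp148, Kat6b, Rbm4, Hipk3 (-0.72) and Elf2. The groups did not overlap for Snrk, Rbm4 and Hipk3, as for 22.7% of all circles. With limma's voom and quality weights, Snrk (-0.55, adjusted p = 0.0088), Zfp609 (0.50, adjusted p = 0.019) and Kat6b (0.47, adjusted p = 0.035) passed, and the other circles named here did not. At the level of whole libraries, 34445 ± 11748 circles were listed in Adar1-2KO and 41352 ± 5705 in Adar2KO, and 32981 ± 11191 and 39628 ± 4681 when each library was thinned to the lowest total (exact permutation p = 0.4 for both). The difference in circles listed was -6907, but -1405 without Adar1-2KO replicate 3, -3996 without Adar2KO replicate 2, -13093 without Adar1-2KO replicate 1, and 683 when only circles with 5 or more reads in the library were counted. The difference in circles at equal depth was -6647, and -1028, -4206, -12218 and 593 in the same order. The 10 leading circles of a library held 6.89% ± 1.03 of its reads in Adar1-2KO and 6.64% ± 0.44 in Adar2KO (exact permutation p = 0.8), and circles of a named gene held 90.7% ± 1.25 in Adar1-2KO and 91.97% ± 1.36 in Adar2KO (exact permutation p = 0.3). Adjusted over the 5 library values these p-values were 0.5 to 0.8.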

How the data were processed

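Circular RNAs of 6 ONT libraries, 3 of Adar1-2KO and 3 of Adar2KO brains, were analysed from the authors' deposited tables, which list for each library the circles with 2 or more reads, their ends, type, blocks and isoforms, and read counts. The circle caller is not given in the sources used here. Coordinates are 1-based on GRCm39 (mm39), per the submitters' processing notes. Lengths are 1 base per block longer than the tables give, since only then did circles match exon runs. Illumina counts were made by the authors with CIRIquant 1.1.2, per the file headers, and the Adar1-2KO files, whose header row is offset by 1 column, were read accordingly. Members, gene lists and tests were chosen with earlier results of these data known. Counts were fitted with edgeR 4.0.16 (quasi-likelihood, TMM, R 4.3.3) on circles with 5 or more reads in at least 3 of the 6 libraries, and on sums per host over all its circles, with Benjamini-Hochberg adjustment over all features tested and a threshold of 0.05. CPM are reads per 1000000 listed circle reads, and SE is the absolute log2 fold change divided by the square root of F. Values per library were set against each other with an exact permutation test, two-sided, over 20 splits. The text names at most 10 rises and 10 falls, by size, among features that passed without overlap between groups, further passing circles by value alone, up to 5 falls of lowest p, circles of the altered genes, the 10 most abundant circles, and per list the hosts that passed. DESeq2 1.42.0, limma 3.58.1, other filters and scalings, and fits without each library were alternatives, and the scripts were tested on simulated data. A Nanopore library of wild type brain was not used here, and some host genes that passed are not reported here. The labels call the replicates biological, and the p-values measure the spread between them.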

Additional observations from a re-analysis of the deposited data

How the results depend on the processing

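The 20 circles that passed had the same sign under all alternatives tried, except that of Ppia, which changed to 0.38 on the log2 scale when circles with both ends within 25 bases were joined, and only 18 of them could be tested among circles listed in all 6 libraries. The number of circles that passed was 48 at an adjusted p under 0.1, 154 by DESeq2, 36 with 10 or more reads in at least 3 libraries, 199 with no filter, 52 with all ONT libraries in the fit, 185 with limma's voom and quality weights, and 96 among circles listed in all 6 libraries, an alternative added, like the joining, after seeing the data. Leaving out 1 library gave 0 to 93 circles, the highest without Adar1-2KO replicate 3. For host genes, against 28, the counts were 52 at an adjusted p under 0.1, 141 by DESeq2, 160 with no filter, 52 with all ONT libraries, 175 with voom and quality weights, 47 among hosts listed in all 6 libraries, and 1 to 163 without 1 library. The cause of these differences was not tested. A replicate block on the shared numbers gave 8 circles, all among the 20, and 24 hosts, of which 20 were among the 28. The numbers are not stated to pair the samples. Correlations of deviations between libraries of the same number were -0.02, 0.06 and 0.06 over circles and -0.01, 0.04 and 0.04 over hosts. Not every library correlated best with its own number. Counting only circles with 5 or more reads turned the difference in circles listed to 683 and that at equal depth to 593. The difference in the share of reads in the 10 top circles of each library was -0.265 to 0.761 percentage points without 1 library, below 0 without Adar1-2KO replicate 2 and, at -0.000867, without Adar2KO replicate 2. Depth limits what can be called among the 2344 circles that reached 5 reads in exactly 3 libraries, whose median was 29 summed reads.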

Other observations

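With circles joined where both ends lie within 25 bases, 2 circles passed that are not among the 9758 at exact ends. A circle in an intron of Anks3 (chr16:4773920-4775365) had 0 reads in each Adar1-2KO library and 99, 174 and 121 in Adar2KO (adjusted p = 0.00441, edgeR), while an antisense circle with ends 46 and 19 bases away had 89, 87 and 31 reads in Adar1-2KO and 0 in each Adar2KO library. Whether these are 1 circle was not tested. An intergenic circle (chr1:164270056-164270758) had 0 reads in each Adar1-2KO library and 25, 43 and 52 in Adar2KO (adjusted p = 0.0348, edgeR). The host sum of Gm25541 was 53.2 ± 46.8 CPM in Adar1-2KO, 355 ± 89.7 CPM in Adar2KO and 104 CPM in wild type, and it did not pass (adjusted p = 0.0588, edgeR).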
